A study of Mus musculus with 2 samples.

Results

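CAR and PXR, the xenobiotic receptors of the liver, and a group of their textbook target genes were followed through single nuclei of regenerating mouse liver. The group holds 9 of the 32286 genes in the count table: the receptor genes Nr1i3 (CAR) and Nr1i2 (PXR), the cytochrome P450 genes Cyp2b10, Cyp2b9, Cyp2b13, Cyp3a11 and Cyp3a25, and Por and Ces2a. They were looked up by symbol. The set was chosen by their CPM and shares of positive nuclei in these libraries, so the differences between the livers given for them are a description. The series compared 1 Cox10-/- liver with 1 wild-type liver. Both animals had floxed Cox10, ate standard chow and were given AAV8-Cre or AAV8-GFP, and the labels do not say which animal received which virus. A 70% partial hepatectomy, the removal of most of the liver mass, followed 4 weeks after the virus. Dissection came 4 days after surgery by the protocol and 4 weeks after it by the sample characteristics, and both are given here as stated. Cox10 encodes an enzyme that makes the heme A of mitochondrial cytochrome c oxidase, and AAV8 infects mainly hepatocytes, so cells that escaped Cre, and cell types other than hepatocytes, can keep the gene in a Cox10-/- liver.

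CAR and PXR are nuclear receptors that pair with RXR on DNA and switch on genes for drug, bile acid and steroid clearance when drugs or endogenous metabolites activate them. In mouse liver Cyp2b10 is the standard readout of CAR and Cyp3a11 that of PXR, and the receptors share many targets. The cytochrome P450 enzymes take their electrons from the reductase encoded by Por, and Ces2a encodes a carboxylesterase of the endoplasmic reticulum that hydrolyses esters of drugs and lipids.

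The promoter windows of 5 members are shown, those of the Cyp2b and Cyp3a genes, because the genes of each family are close relatives and because the receptors bind repeats of short half-sites. Each window covers 250 bases before and 50 bases after the gene start in RefSeq on GRCm38.p6, 5′ to 3′ on the strand of the gene, with the half-sites AGGTCA and AGTTCA on either strand in capitals.
Cyp2b10: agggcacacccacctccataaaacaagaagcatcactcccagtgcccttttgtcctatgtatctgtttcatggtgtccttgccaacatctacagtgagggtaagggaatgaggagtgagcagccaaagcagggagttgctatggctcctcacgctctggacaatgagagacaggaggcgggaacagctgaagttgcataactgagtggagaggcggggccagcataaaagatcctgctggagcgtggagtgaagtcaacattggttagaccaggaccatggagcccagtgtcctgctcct
Cyp2b9: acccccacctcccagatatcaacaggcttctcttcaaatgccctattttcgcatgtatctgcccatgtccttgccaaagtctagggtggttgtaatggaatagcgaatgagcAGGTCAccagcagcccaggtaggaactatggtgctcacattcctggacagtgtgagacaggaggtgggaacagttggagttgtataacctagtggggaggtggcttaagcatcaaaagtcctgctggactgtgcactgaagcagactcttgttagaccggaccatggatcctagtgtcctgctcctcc
Cyp2b13: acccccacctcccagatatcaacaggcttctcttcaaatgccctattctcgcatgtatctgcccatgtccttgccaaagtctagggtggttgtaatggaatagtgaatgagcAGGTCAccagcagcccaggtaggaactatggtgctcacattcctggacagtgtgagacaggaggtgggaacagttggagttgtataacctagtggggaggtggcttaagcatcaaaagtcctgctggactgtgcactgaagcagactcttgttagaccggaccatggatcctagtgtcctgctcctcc
Cyp3a11: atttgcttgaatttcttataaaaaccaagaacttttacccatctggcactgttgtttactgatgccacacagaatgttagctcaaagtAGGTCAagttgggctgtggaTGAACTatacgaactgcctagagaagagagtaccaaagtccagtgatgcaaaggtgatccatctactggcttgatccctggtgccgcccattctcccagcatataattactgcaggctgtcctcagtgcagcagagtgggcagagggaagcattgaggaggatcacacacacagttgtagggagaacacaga
Cyp3a25: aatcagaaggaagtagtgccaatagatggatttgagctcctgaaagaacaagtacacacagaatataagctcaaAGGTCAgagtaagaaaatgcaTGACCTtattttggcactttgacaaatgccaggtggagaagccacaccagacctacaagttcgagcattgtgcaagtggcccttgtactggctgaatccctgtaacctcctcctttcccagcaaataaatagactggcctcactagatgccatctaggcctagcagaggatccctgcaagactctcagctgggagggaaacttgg
The Cyp2b10 window (chr7:25897408-25897707, plus strand) held neither half-site. The Cyp2b9 window (chr7:26173159-26173458, plus strand) and the Cyp2b13 window (chr7:26061245-26061544, plus strand) matched at 298 of 300 bases, or 99.3%, and each held AGGTCA at position -138 from the gene start. Cyp2b10 and Cyp2b9 matched at 147 of 299 bases, or 49.2%, at the best shift of 1 base. The Cyp3a11 window (chr5:145879805-145880104, minus strand) held half-sites at -162 and -142, and the Cyp3a25 window (chr5:146009569-146009868, minus strand) at -176 and -155. A half-site occurred in 5 of the 9 members' windows (Cyp2b9, Cyp2b13, Cyp3a11, Cyp3a25 and Ces2a, whose AGGTCA lay at -226) and in 27.6% of all 27018 windows of the same length. Repeats were counted on either strand for any pairing of these half-sites, mixed pairs included. Direct repeats at a spacing of 3 bases (such as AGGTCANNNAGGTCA or AGTTCANNNAGTTCA) occurred in 3 windows of the genome. Direct repeats at a spacing of 4 (such as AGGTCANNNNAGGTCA or AGTTCANNNNAGTTCA) occurred in 7, and everted repeats at a spacing of 6 (such as TGACCTNNNNNNAGGTCA or TGAACTNNNNNNAGTTCA) in 3. None of them was in a member's window, which says only that these exact letters are not there.

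The Cox10-/- library held 5167 nuclei with 14476400 UMIs (unique molecular identifiers, 1 per captured transcript), and the wild-type library 5448 nuclei with 17703804 UMIs. The libraries shared 7 cell barcodes. Cox10 itself was at 43.7 CPM (UMIs of the gene per 1e+06 UMIs of the class) in Cox10-/- hepatocyte-like nuclei and at 35.8 CPM in wild-type ones. The labels do not name the deleted exon, and a 3′ tag outside it checks nothing about the deletion. After filtering, 1170 of 3136 Cox10-/- nuclei (37.3%) and 1496 of 1542 wild-type nuclei (97.0%) were hepatocyte-like by their markers, with medians of 2658 and 4415 UMIs. The libraries fell into different clusters: the Cox10-/- hepatocyte-like nuclei were mainly in 1 cluster of 639 nuclei, in 1 shallow cluster of 446 nuclei (median 1122 UMIs, led by Tff3, Orm2, Saa1, Saa2 and Lrg1) and in 1 of 64 nuclei, and the wild-type ones in clusters of 665, 674 and 149 nuclei. Members are given with and without the shallow cluster. Summed marker levels of other cell types were higher in Cox10-/- than in wild-type hepatocyte-like nuclei: 71.8 against 29.5 CPM for endothelial markers (12 of 12 detected in both), 191 against 25.8 CPM for stellate markers (10 of 10 and 7 of 10, with Col1a1, Col3a1 and Pdgfrb at 0 in wild-type) and 90.8 against 6.35 CPM for myeloid markers (11 of 12 and 10 of 12). Lymphoid markers were at 6.72 against 4.37 CPM (7 of 16 in each), cholangiocyte markers at 178 against 88.6 CPM (8 and 5 of 10) and mesothelial markers at 0 against 0.282 CPM. Their part in the results was not tested.

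The level of free RNA was read from nuclei of other cell types. These were the endothelial-, stellate-, myeloid- and lymphoid-like nuclei of each library before filtering, called the other lineages: 3068 Cox10-/- nuclei (7910620 UMIs, median 2363) and 139 wild-type nuclei (394899 UMIs, median 2491). That they lack the genes described was assumed and not tested. A gene that they express themselves, members such as Por included, would have a level there above that of free RNA. There is 1 library per group, so no test of the genotype was possible. Intervals in parentheses are exact 95% intervals and cover counting error only, and a gene is called when its ratio is at least 2-fold and its interval lies beyond 1.5-fold. By that rule 3 of the 8 members with enough UMIs were higher in the Cox10-/- library (Cyp2b10, Cyp2b9 and Cyp3a11) and 0 were lower. Over all 11434 genes measured, 7.67% were called higher and 3.22% lower. Without the shallow cluster the same 3 members were higher and 0 lower, against 5.12% and 3.08% of 11252 genes. The members' median log2 ratio was 0.83 against -0.03 for all genes, and 0.65 against -0.01 without the shallow cluster. Since the members were picked with this contrast in view, nothing is read from these shares.

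**Figure D1:**
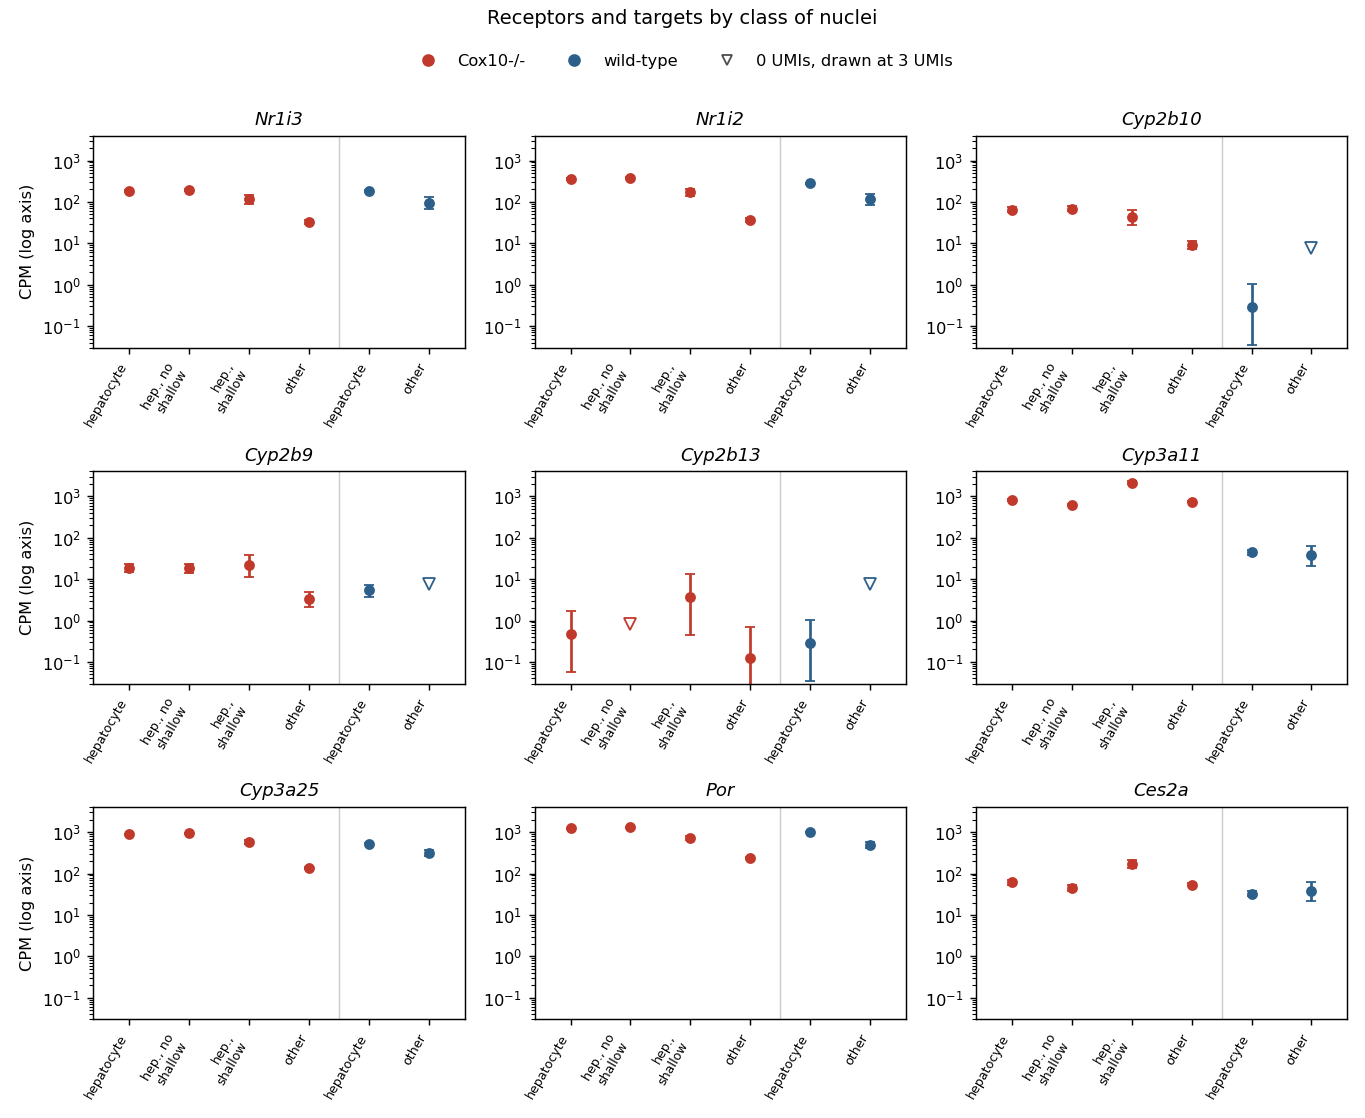
Levels of the 9 members in CPM (log axis), Cox10-/- (red: hepatocyte-like nuclei, the same without and in the shallow cluster, and other lineages) left of wild-type (blue: hepatocyte-like nuclei and other lineages) in each panel, with exact 95% counting intervals and open triangles for 0 UMIs drawn at 3 UMIs. Cyp2b10 stands at 65.3 against 0.282 CPM in hepatocyte-like nuclei, while Cyp3a11 is at 822 and 748 CPM in Cox10-/- hepatocyte-like nuclei and other lineages.

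Nr1i3, the CAR gene (ENSMUSG00000005677.14, chr1:171213970-171220701 on mm10, plus strand), was at 184 CPM (172 to 198, 768 UMIs) in Cox10-/- hepatocyte-like nuclei and at 180 CPM (170 to 190, 1277 UMIs) in wild-type ones. The ratio was 1.02 (0.935 to 1.12), or 1.08 (0.983 to 1.18) without the shallow cluster. Both intervals include 1, so no difference between the livers in summed CAR mRNA, free RNA included, was detectable at this depth. Nr1i2, the PXR gene (ENSMUSG00000022809.4, chr16:38248323-38294824, minus strand), was at 358 CPM (340 to 376) in the Cox10-/- liver and 281 CPM (269 to 294) in the wild-type liver, a ratio of 1.27 (1.19 to 1.36). It lay above counting error and under the 2-fold limit, and was 1.37 without the shallow cluster.

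In the Cox10-/- library both receptors stood well above the other lineages: 5.65 times for Nr1i3 (184 against 32.6 CPM) and 9.79 times for Nr1i2 (358 against 36.5 CPM). The wild-type margins were 1.92 times for Nr1i3 (180 against 93.7 CPM) and 2.41 times for Nr1i2 (281 against 116 CPM), with few nuclei in the wild-type reference. Wild-type Nr1i3 thus fell short of 2 times. In the other lineages both receptors were lower in Cox10-/-, with ratios of 0.348 (0.246 to 0.506) for Nr1i3 and 0.314 (0.229 to 0.438) for Nr1i2. How much free RNA adds to the hepatocyte-like levels of each library was not tested. Of the 16 hepatocyte markers, 4 were at least 2 times above the other lineages in Cox10-/- (Cps1 at 6.03, Tat at 5.39, Hnf4a at 5.16 and Ahsg at 2.27) and 1 in wild-type (Hnf4a at 2.12). The remaining 12 lay between 0.875 (Serpina1c) and 1.80 (Cyp2e1) in Cox10-/-. Nr1i3 was found in 36.2% of Cox10-/- and 50.1% of wild-type hepatocyte-like nuclei, against 7.79% and 17.3% of other lineages. At 1000 UMIs per nucleus these shares were 13.9% and 17.0%, against 3.37% and 5.76%. The thinned share of Nr1i2 was 24.9% in Cox10-/- and 23.2% in wild-type hepatocyte-like nuclei, against 3.60% and 7.91% of other lineages.

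Cyp2b10, which encodes the CAR-inducible P450 of mouse liver, differed most from 1 between the livers among the members with a fold. The gene (ENSMUSG00000030483.14, chr7:25897620-25926624, plus strand) had 272 UMIs in Cox10-/- hepatocyte-like nuclei, or 65.3 CPM (57.8 to 73.6), and 2 UMIs in wild-type ones, or 0.282 CPM (0.0342 to 1.02). Against so few wild-type UMIs the ratio of 232 has a wide interval (63.5 to 1922). It was 243 (66.6 to 2020) when the shallow cluster was left out. A UMI was present in 140 of 1170 Cox10-/- nuclei, 12.0% (10.2 to 14.0), of which 55 had 2 or more and the highest had 15. In wild-type, 2 of 1496 nuclei (0.134%) had 1 each.

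The other lineages of the Cox10-/- liver held 73 UMIs of Cyp2b10, or 9.23 CPM (7.23 to 11.6), in 2.25% of nuclei. Hepatocyte-like nuclei were thus 7.08 times above them (5.45 to 9.29). By class the level was 10.8 CPM in endothelial-, 8.56 in stellate-, 8.34 in myeloid- and 3.81 in lymphoid-like nuclei (1 UMI), all under the 65.3 CPM of hepatocyte-like ones. The wild-type other lineages held 0 UMIs, which allows up to 7.60 CPM and a share of up to 2.16%. At 1000 UMIs per nucleus the share with Cyp2b10 was 4.35% of 1126 Cox10-/- hepatocyte-like nuclei, 0 of 1495 wild-type ones and 1.05% of the Cox10-/- other lineages. Most Cox10-/- hepatocyte-like nuclei therefore had no Cyp2b10 UMI, at a depth that cannot tell a silent nucleus from one with few transcripts.

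Cyp2b9, a P450 of the same family that is female-biased in adult mouse liver, was also called higher. The gene (ENSMUSG00000040660.6, chr7:26173411-26210661, plus strand) had 79 UMIs in Cox10-/- hepatocyte-like nuclei, or 19.0 CPM (15.02 to 23.6), and 38 in wild-type ones, or 5.36 CPM (3.79 to 7.35). The ratio was 3.54 (2.38 to 5.36), and 3.45 without the shallow cluster. The Cox10-/- other lineages were at 3.29 CPM, so hepatocyte-like nuclei stood 5.77 times above them (3.66 to 9.37), and the wild-type other lineages had 0 UMIs. Shares with a UMI were 5.30% of Cox10-/- and 1.74% of wild-type hepatocyte-like nuclei, against 0.815% and 0 of the other lineages, or 1.87% and 0.468% against 0.327% and 0 after thinning.

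Cyp2b13, another female-biased gene beside it (ENSMUSG00000040583.8, chr7:26061497-26096197, plus strand), had 2 UMIs in the hepatocyte-like nuclei of each library, 0.480 CPM in Cox10-/- and 0.282 CPM in wild-type, at or below what a count of 0 allows, and no fold is given. Cyp2b9, whose promoter window differs from that of Cyp2b13 at 2 of 300 bases, was thus called between the livers, and Cyp2b13 was too low to compare. Exact 90-base words were compared between transcripts. Any differing base breaks every word over it, so the share of words does not measure how alike the transcripts are. Of the words of Cyp2b9, 2.69% occur in Cyp2b13. In other genes occur 0.476% of the words of Cyp2b10 and 11.3% of those of Cyp2b13. Reads from such words can be lost or shared between the genes.

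Cyp3a11, the PXR-inducible P450 that handles much of the drug and bile acid load of the mouse liver, showed another pattern. The gene (ENSMUSG00000056035.8, chr5:145854426-145879964, minus strand) was at 822 CPM (795 to 850, 3424 UMIs) in Cox10-/- hepatocyte-like nuclei and at 44.1 CPM (39.4 to 49.3, 313 UMIs) in wild-type ones, a ratio of 18.6 (16.6 to 20.98). The other lineages differed to a like degree, with 748 CPM (729 to 767) in Cox10-/- and 38.0 CPM (21.3 to 62.6) in wild-type, a ratio of 19.7 (11.9 to 35.2). In neither library did hepatocyte-like nuclei stand 2-fold above the other lineages: the ratio was 1.10 (1.05 to 1.15) in Cox10-/- and 1.16 (0.694 to 2.10) in wild-type.

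Cyp3a11 was spread evenly over the other Cox10-/- classes, at 858 CPM in endothelial-, 646 in stellate-, 692 in myeloid- and 854 in lymphoid-like nuclei. Alb, the serum albumin gene, likewise stood only 1.12 times above the other lineages in Cox10-/- and 1.05 times in wild-type. Within the Cox10-/- hepatocyte-like nuclei the shallow cluster held 2164 CPM (2041 to 2292), 2.89 times the other lineages, and the remaining nuclei 624 CPM, 0.835 times. The ratio between the livers was 14.1 (12.6 to 16.0) when that cluster was left out. Thinned shares with a UMI were 62.2% of Cox10-/- and 4.88% of wild-type hepatocyte-like nuclei, against 54.4% and 3.60% of the other lineages. The difference between the livers in Cyp3a11 was thus present in hepatocyte-like nuclei and other lineages alike. Only 0.725% of its 90-base words occur in other genes.

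Cyp3a25, a neighbouring P450 gene of the same family (ENSMUSG00000029630.15, chr5:145977194-146009618, minus strand), was at 898 CPM (870 to 928) in Cox10-/- and 533 CPM (516 to 550) in wild-type hepatocyte-like nuclei. The ratio of 1.68 (1.61 to 1.76) was above counting error and under the 2-fold limit, and was 1.77 without the shallow cluster. In the other lineages the order was the opposite, with 136 CPM in Cox10-/- and 317 CPM in wild-type, a ratio of 0.429 (0.356 to 0.520). Hepatocyte-like nuclei stood 6.62 times above the other lineages in Cox10-/- and 1.68 times in wild-type. A share of 8.66% of its 90-base words occurs in Cyp3a59, so part of its reads is not certain.

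Por, the electron donor of all microsomal P450 enzymes (ENSMUSG00000005514.14, chr5:135670033-135735326, plus strand), was at 1238 CPM (1205 to 1273) in the Cox10-/- liver and 1012 CPM (988 to 1035) in the wild-type liver. The ratio was 1.22 (1.18 to 1.27), or 1.30 without the shallow cluster, again above counting error and short of a call. It stood 5.27 times above the other lineages in Cox10-/- and 2.05 times in wild-type. Thinned to 1000 UMIs, 63.5% of Cox10-/- and 58.7% of wild-type hepatocyte-like nuclei had a UMI, against 21.6% and 28.1% of the other lineages.

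Ces2a (ENSMUSG00000055730.16, chr8:104734003-104741634, plus strand) was at 61.2 CPM (53.9 to 69.2) in Cox10-/- and 32.7 CPM (28.6 to 37.2) in wild-type hepatocyte-like nuclei. The ratio of 1.87 (1.56 to 2.25) fell to 1.38 (1.12 to 1.69) without the shallow cluster, in which Ces2a was at 170 CPM (137 to 209). The level in the other lineages was 54.2 CPM in Cox10-/- and 38.0 CPM in wild-type, so hepatocyte-like nuclei were 1.13 times (0.963 to 1.32) and 0.861 times (0.511 to 1.56) as high as they were. Ces2a thus resembled Cyp3a11 in not standing above the other lineages. A share of 9.35% of its 90-base words is found in the pseudogene-like entry Gm7208.

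**Figure D2:**
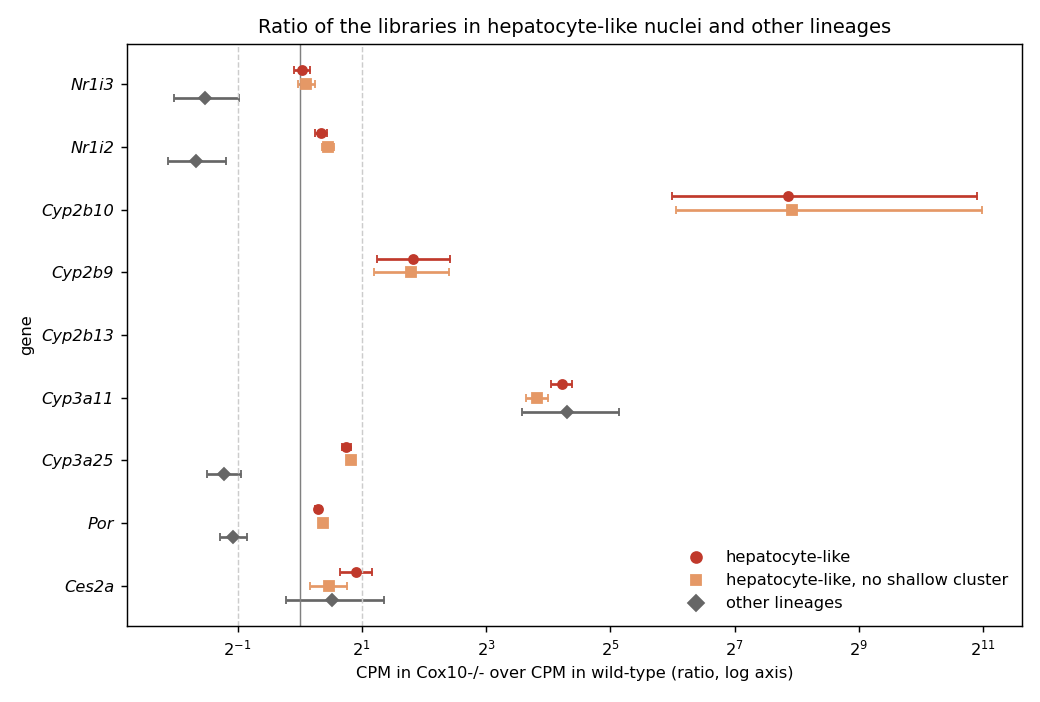
Cox10-/- over wild-type ratios of the members (log axis) in hepatocyte-like nuclei, with and without the shallow cluster, and in the other lineages, with exact 95% counting intervals and no point where a library has 0 UMIs or both have too few. Cyp3a11 is 18.6 in hepatocyte-like nuclei and 19.7 in other lineages, whereas Por is 1.22 and 0.476.

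The shares of nuclei with a UMI were read beside the levels. After thinning, the Cox10-/- hepatocyte-like share was above the Cox10-/- share of other lineages for each of the 8 measured members. The margin in percentage points was widest for Por and narrow for Ces2a (8.17% against 5.399%). With the shallow cluster left out, 355 thinned nuclei had Cyp3a11 and 367 did not, a share under that of the other lineages. For Ces2a the counts were 39 and 683, about the share of the other lineages. In thinned Cox10-/- hepatocyte-like nuclei the variance-to-mean ratio of UMI counts per nucleus was 1.28 for Cyp2b10, 1.31 for Cyp2b9 and 1.57 for Cyp3a11. For the other measured members it was between 1.06 and 1.17. This ratio can grow with the level of a gene, and for Cyp3a11 it takes in the shallow cluster at 2164 CPM and the other nuclei at 624 CPM.

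**Figure D3:**
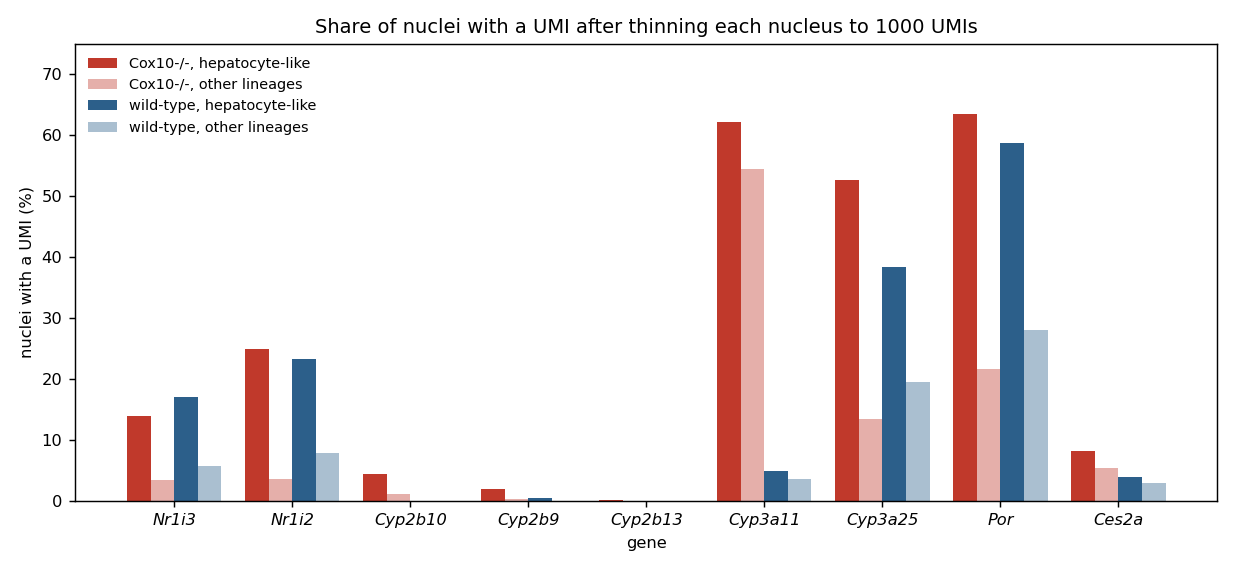
Percent of nuclei with at least 1 UMI of each member after thinning every nucleus to 1000 UMIs, in hepatocyte-like nuclei (dark bars) and other lineages (light bars), Cox10-/- (red) left of wild-type (blue). Cyp3a11 is found in 62.2% of Cox10-/- and 4.88% of wild-type hepatocyte-like nuclei, and in 54.4% and 3.60% of other lineages.

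The 49 thinned Cox10-/- hepatocyte-like nuclei with a Cyp2b10 UMI were set beside the 1077 without one. Cyp3a11 was found in 69.4% (54.6 to 81.7) of nuclei with Cyp2b10 and in 61.8% (58.9 to 64.8) of those without. Nr1i3 was found in 12.2% and 14.0%, and Cyp2b9 in 0 of 49 and 21 of 1077. These intervals overlapped. No interval of a difference was computed, and overlap alone does not decide whether nuclei with and without Cyp2b10 differ. Among the 700 nuclei with Cyp3a11, 9.86% (7.75 to 12.3) had Ces2a, and among the 426 without it 5.399% (3.45 to 7.99). Leaving out the shallow cluster, the shares were 5.92% (3.70 to 8.90) of 355 nuclei and 4.90% (2.93 to 7.64) of 367, each within the interval of the other.

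Across the liver lobule, hepatocytes near the central vein carry most P450 and CAR activity, and those near the portal vein carry urea synthesis and glucose production. Hepatocyte-like nuclei of each library were ordered by pericentral minus periportal marker scores, from 14 periportal genes and 13 pericentral genes in Cox10-/- or 12 in wild-type. They were divided into pericentral, middle and periportal ranges of equal size, 390 Cox10-/- nuclei each and 499, 498 and 499 wild-type nuclei. The ranges are divisions of a score and not cell types, and 14.0% of Cox10-/- and 12.3% of wild-type nuclei lay near a limit. They were set within each library, so a range need not hold the same lobule position in both livers. Limits common to both libraries gave 516, 346 and 308 Cox10-/- nuclei and 373, 542 and 581 wild-type nuclei from pericentral to periportal. Glul, a pericentral marker used in the score, was at 444, 185 and 101 CPM from pericentral to periportal in Cox10-/- and at 192, 51.1 and 25.3 CPM in wild-type. The shallow cluster was spread unevenly, with 200, 198 and 48 of its nuclei in the pericentral, middle and periportal ranges.

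Nr1i3 was pericentral in both livers. Its level from pericentral to periportal was 278, 193 and 121 CPM in Cox10-/- and 265, 164 and 110 CPM in wild-type. The pericentral over periportal ratio was 2.31 (1.94 to 2.74) in Cox10-/- and 2.404 (2.08 to 2.79) in wild-type. Without the shallow cluster the Cox10-/- ratio was 2.81 (2.31 to 3.42). By these ranges, set within each library, the Nr1i3 levels of the livers were close. Their Cox10-/- over wild-type ratios were 1.05, 1.18 and 1.10. These were 1.15 (1.01 to 1.31), 1.12 (0.937 to 1.33) and 0.987 (0.802 to 1.21) without the shallow cluster. Nr1i2 leaned slightly the other way, at 0.861 (0.761 to 0.973) in Cox10-/- and 0.820 (0.735 to 0.914) in wild-type.

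Cyp2b10 ran against the gradient of its receptor in the Cox10-/- liver. It was at 35.9, 44.9 and 95.3 CPM from pericentral to periportal, a pericentral over periportal ratio of 0.377 (0.264 to 0.528). A UMI was present in 8.21% of pericentral and 18.7% of periportal nuclei, whose medians were 1460.5 and 4468 UMIs. Without the shallow cluster the levels were 37.5, 50.2 and 109 CPM and the ratio 0.343 (0.239 to 0.482), at medians of 3949 and 5315 UMIs. The 2 wild-type UMIs both lay in the middle range.

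Cyp2b9 had no detectable gradient in the Cox10-/- liver, at 20.04, 18.7 and 18.4 CPM from pericentral to periportal and a ratio of 1.09 (0.619 to 1.88). In the wild-type liver it was periportal, with 1, 7 and 30 UMIs, or 0.419, 2.95 and 12.9 CPM, and a pericentral over periportal ratio of 0.0326 (0.000799 to 0.196). The Cox10-/- over wild-type ratio accordingly was 47.9 (7.80 to 1968) in the pericentral range, 6.34 (2.57 to 17.7) in the middle and 1.43 in the periportal range. The pericentral ratio rests on 24 against 1 UMIs, and in the periportal range the livers could not be told apart. The ranges compared were set within each library. The ratios were 57.0, 5.03 and 1.30 when the shallow cluster was left out.

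Cyp3a11 was higher in pericentral nuclei of both livers, at 1161, 972 and 524 CPM in Cox10-/- and 79.1, 30.8 and 21.8 CPM in wild-type from pericentral to periportal. The pericentral over periportal ratio was 2.21 (2.04 to 2.405) in Cox10-/- and 3.62 (2.65 to 5.04) in wild-type. Without the shallow cluster the Cox10-/- levels were 852, 639 and 419 CPM and the ratio 2.03, so the gradient was present among the deeper nuclei too, although their level was under that of the other lineages. Of the wild-type ranges, the pericentral one, at 79.1 CPM, lay above the upper bound of 62.6 CPM for the wild-type other lineages.

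Por was pericentral in both livers, at 1.36 (1.27 to 1.44) in Cox10-/- and 1.78 (1.68 to 1.89) in wild-type as pericentral over periportal. Cyp3a25 had a ratio of 1.08 (0.999 to 1.16) in Cox10-/- and 1.60 (1.47 to 1.73) in wild-type. Without the shallow cluster these Cox10-/- ratios were 1.53 for Por and 1.19 for Cyp3a25, still under the wild-type values. Ces2a showed no gradient beyond counting error, with 1.31 (0.964 to 1.78) in Cox10-/- and 1.11 (0.802 to 1.54) in wild-type.

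**Figure D4:**
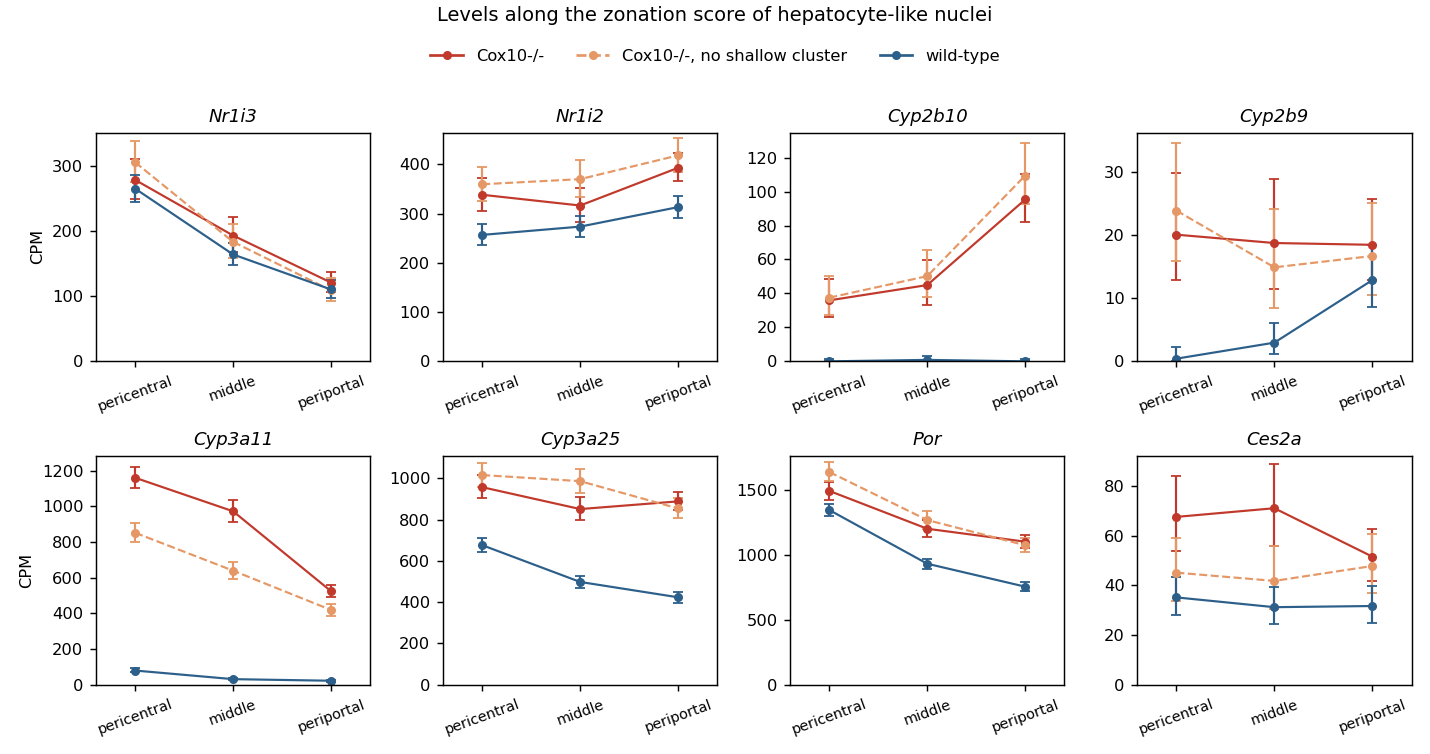
Levels in CPM of the 8 measured members in the pericentral, middle and periportal ranges of hepatocyte-like nuclei, for Cox10-/- (red, and dashed without the shallow cluster) and wild-type (blue), with exact 95% counting intervals. Nr1i3 is highest in the pericentral range of both livers (278 and 265 CPM), while Cyp2b10 is highest in the periportal range of the Cox10-/- liver (95.3 CPM).

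By cluster, Nr1i3 and Por were ordered alike within each library. In Cox10-/-, the cluster of 64 nuclei led by Meg3, Rian, Slc1a2 and Lgr5 had 305 CPM of Nr1i3 and 1643 CPM of Por, against 182 and 1282 CPM in the cluster of 639 nuclei. In wild-type, the cluster of 149 nuclei with Cyp2c38, Slc1a2, Cyp7a1 and Tbx3 among its leading genes had 312 CPM of Nr1i3 and 1595 CPM of Por, against 213 and 1138 CPM in the cluster of 674 and 107 and 715 CPM in the cluster of 665. Cyp3a11 in wild-type followed the same order, at 145, 37.5 and 24.5 CPM. Cyp2b9 in wild-type ran the other way, at 0 UMIs (up to 3.85 CPM), 3.60 CPM and 8.85 CPM.

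Genes whose levels most resembled those of Cyp2b10 and Nr1i3 were sought over 13 sums of nuclei, by class and by zone, among 10207 genes. The sums share 2 libraries and their nuclei, so the coefficients are a description. Beside Cyp2b10 stood Gm31333 (Pearson r = 0.97), Lrrc58 (0.96), Cpb2 (0.93), Copb2 (0.92) and Ntrk2 (0.92). Ntrk2, the neurotrophin receptor TrkB, had 61.7 CPM in hepatocyte-like nuclei of the Cox10-/- liver and 4.23 CPM in those of the wild-type liver, and Cpb2, a plasma carboxypeptidase, at 139 and 92.1 CPM. Beside Nr1i3 stood Lipg (0.99), Acot4 (0.99), Dcaf11, Pdzk1 and Cipc (0.98 each), and among the members Por (0.90) and Cyp3a25 (0.89). Over these sums Nr1i3 and Cyp2b10 had a coefficient of -0.02, and Nr1i3 and Cyp3a11 one of -0.24. With the other members, Cyp2b10 had 0.82 for Ces2a, 0.75 for Cyp3a11, 0.44 for Cyp2b9, 0.21 for Cyp3a25, 0.10 for Por and 0.06 for Nr1i2.

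Of 36 other CAR and PXR targets, 28 had enough UMIs, and 13 were called higher and 0 lower in the Cox10-/- liver, with a median log2 ratio of 0.50 against -0.03 for all genes. Leaving out the shallow cluster, 10 were higher and 0 lower, with a median of 0.32. Over all genes, 7.67% were called higher and 3.22% lower, or 5.12% and 3.08% without that cluster. Fmo5, a flavin monooxygenase, had 4011 CPM in hepatocyte-like nuclei of the Cox10-/- liver and 748 CPM in those of the wild-type liver, a ratio of 5.36 (5.20 to 5.53), and stood 7.58 times above the Cox10-/- other lineages. Only Fmo5, the sulfotransferase gene Sult1d1 (175 against 58.5 CPM) and the P450 gene Cyp3a59 (15.8 against 5.36 CPM) of the 13 were at least 2 times above the other lineages.

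The glutathione transferase gene Gstm1 was at 192 CPM in Cox10-/- and 23.0 CPM in wild-type, a ratio of 8.34 (7.04 to 9.93), and its relative Gstm3 had 30 and 2 UMIs, a ratio of 25.5 (6.48 to 221). The P450 gene Cyp2a5 was at 100.1 and 25.1 CPM, a ratio of 3.99 (3.34 to 4.78). In Cox10-/- other lineages these 3 genes were at 254, 10.7 and 95.6 CPM, so, like Cyp3a11, they did not stand above them. Targets were not uniformly higher: Cyp2c29 had a ratio of 1.10 (1.01 to 1.19), Abcc3 of 0.837 (0.741 to 0.944), Papss2 of 0.687 (0.635 to 0.741) and Gstt1 of 0.641 (0.536 to 0.765). In that order they stood at 0.887, 1.41, 0.431 and 0.978 times the Cox10-/- other lineages. Uncalled targets at least 2 times above these lineages were Slco1a4 (ratio 0.872), Alas1 (0.834), Abcc2 (0.820), Ugt1a9 (0.671) and Cyp3a13 (1.35).

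**Figure D5:**
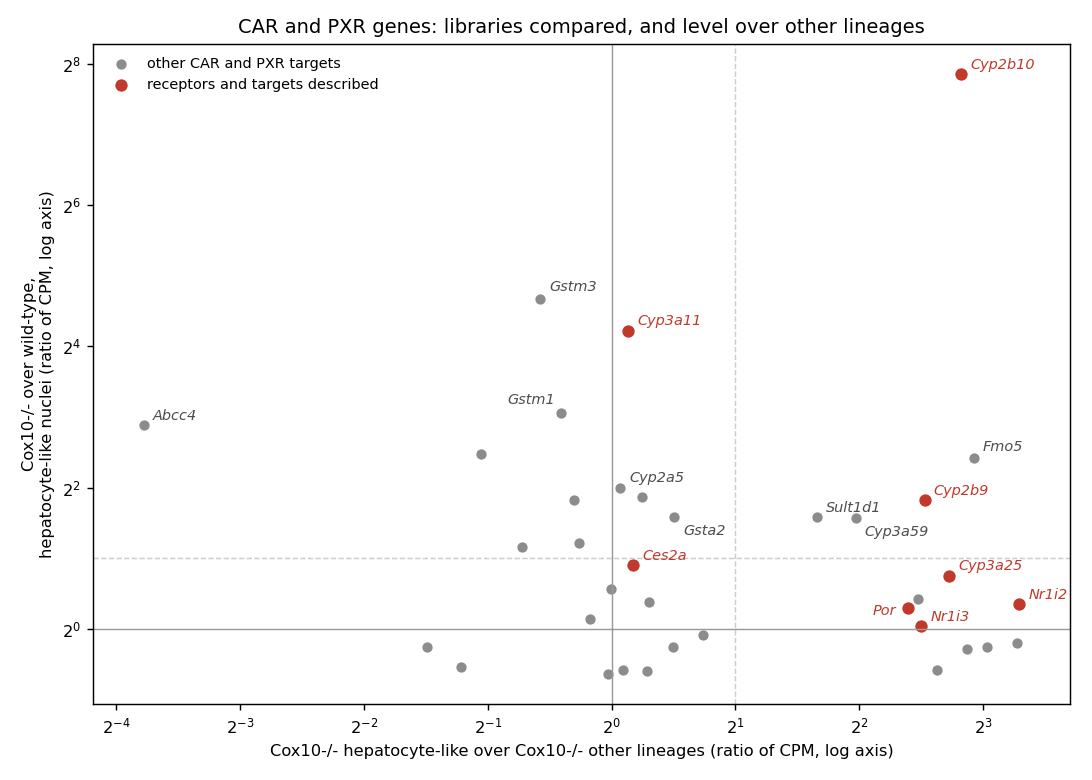
Cox10-/- over wild-type ratio of CPM in hepatocyte-like nuclei (vertical log axis) against the Cox10-/- ratio of hepatocyte-like nuclei over other lineages (horizontal log axis), for the 28 other CAR and PXR targets with enough UMIs (grey) and the 8 measured members (red), with dashed lines at 2-fold. Fmo5, at 5.36-fold, lies 7.58 times above the other lineages, and Gstm1, at 8.34-fold, at 0.754 times.

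Of 16 receptor partners and coregulators (median log2 ratio -0.12), 2 were called higher and 0 lower, against 7.67% and 3.22% of all genes. They were the chaperone genes Hsp90aa1 (62.4 against 25.4 CPM, ratio 2.46) and Hsp90ab1 (174 against 85.5 CPM, ratio 2.03), whose products hold CAR in the cytoplasm. In the deeper nuclei alone Hsp90aa1 was at 1.87 and Hsp90ab1 at 1.60, and both lay under the other lineages. Rxra, the partner of both receptors, was at 212 CPM in Cox10-/- and 235 CPM in wild-type, a ratio of 0.902 (0.830 to 0.979). Ppargc1a, a coactivator induced by fasting, was at 687 and 369 CPM, a ratio of 1.86 (1.77 to 1.96). In the deeper nuclei alone it was at 2.01 (1.90 to 2.12) and was the 1 gene of the list called.

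Of 10 measured other receptors of xenobiotics, bile acids and lipids, 1 was called higher and 0 lower, against 7.67% and 3.22% of all genes. It was Ahr, the dioxin receptor, at 196 CPM in Cox10-/- and 61.5 CPM in wild-type, a ratio of 3.18 (2.83 to 3.58) and 3.48 times above the Cox10-/- other lineages. Ppara and Nr1h4, the receptors of fatty acids and bile acids, had ratios of 0.866 and 0.820. Of 13 electron donors and heme genes, 3 were called higher and 0 lower: Hmox1, which breaks heme down, Urod, which helps make it, and Pgrmc1, a heme-binding partner of P450 enzymes. None of the 3 was 2 times above the other lineages, and 1 of the 13 was called without the shallow cluster. Hmox1 was at 4.08 CPM in Cox10-/- hepatocyte-like nuclei and at 26.8 CPM in the other lineages. For genes that the other lineages may express themselves, this limit cannot tell free RNA from their own. Alas1, the rate-limiting enzyme of heme synthesis and a known CAR target, was at 798 CPM in Cox10-/- and 957 CPM in wild-type, a ratio of 0.834.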

How the data were processed

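The table deposited by the authors holds raw UMI counts per gene and nucleus for both libraries, made with Cell Ranger 7.0 on mm10 per the submitters' processing notes. Use of intronic reads and strand is not given in the sources used here. The filter asked for at least 500 UMIs, at least 300 genes and no more than 10% mitochondrially encoded UMIs per nucleus, which kept 60.7% of Cox10-/- and 28.3% of wild-type nuclei. Doublets were not removed in the main sums, and an alternative left out the highest 5% of Scrublet scores. Median mitochondrially encoded shares of hepatocyte-like nuclei were 5.71% in Cox10-/- and 7.85% in wild-type, and their part in the results was not tested.

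Clustering used scanpy 1.11.5 on Python 3.11.15 (2000 variable genes without the members and other targets, 30 components, 15 neighbours, Leiden resolution 1.0, seed 1, no integration). Classes were named from marker lists, with thresholds set after the data were seen: for 1 class alone a log2 excess of 2 or more, a leading marker 8-fold or more above other nuclei and no fewer than 3 markers detected, or, for hepatocyte-like clusters, at least 3 markers at 2 times the named other clusters. Unnamed nuclei were 5.77% of Cox10-/- and 1.69% of wild-type. Cholangiocyte-like nuclei were left out of the other lineages, since in all deposited nuclei they were mixed with a cluster led by Areg and Nrg1.

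UMIs were summed over the nuclei of a class and divided by its total to give CPM. A gene was measured when both sums together held 20 or more UMIs. Poisson, Clopper-Pearson and conditional binomial intervals came from scipy 1.17.1, log2 ratios used a prior of 0.5 UMI, and a count of 0 was given a limit of 3 counts over the sum. Thinning to 1000 UMIs left out 44 Cox10-/- and 1 wild-type hepatocyte-like nuclei and 13 and 0 of the other lineages. The ratio rule was tested on simulated data. Scaling alternatives used edgeR 4.0.16 and DESeq2 1.42.0 factors only, in R 4.3.3.

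The members and gene lists were chosen with earlier results of these data known. The genes named are the 9 members, the 4 called genes of each list whose interval lies farthest from 1, all Y-linked genes and Xist, and the 5 most like Cyp2b10 and Nr1i3. Other list genes, and those named for standing above the other lineages, were picked after their values were seen. Gene positions come from GENCODE vM21, and promoter windows from RefSeq gene starts, which can differ from them. Alternatives covered scaling, the mitochondrial limit, the way of summing, thinning, the shallow cluster, cluster resolution, variable genes, doublets, gene filters and zone limits.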

Additional observations from a re-analysis of the deposited data

How the results depend on the processing

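The count of members called was 3 higher and 0 lower under 10 of the 12 alternatives, and 4 higher, with Ces2a added, under the mean of each nucleus's CPM and under thinning to 1000 UMIs. In the main sums 7.67% of all genes were called higher and 3.22% lower, or 5.12% and 3.08% without the shallow cluster. Nothing is read from the added call, since under the mean of each nucleus's CPM more genes were called over all genes too. The log2 ratio of Cyp3a11 ranged from 3.82 to 4.80. With at most 5% mitochondrially encoded UMIs, Cyp2b9 had 60 UMIs in Cox10-/- and 0 in wild-type, and Cyp2b10 196 and 0, so that their log2 ratios of 6.24 and 7.93 rest on the prior and bound nothing. Under the other alternatives Cyp2b9 ranged from 1.54 to 1.92. Ces2a ranged from 0.46, without the shallow cluster, to 1.53, with the mean of each nucleus's CPM, and Nr1i3 from -0.25, when thinned, to 0.15. The count of all genes called moved more: 331 higher and 200 lower at no more than 5% mitochondrially encoded UMIs, 1402 and 578 with the mean of each nucleus's CPM, 576 higher without the shallow cluster and 542 higher with at least 100 UMIs per gene, against 877 higher and 368 lower. Fewer nuclei enter under the stricter mitochondrial limit and without the shallow cluster, and fewer genes at 100 UMIs. The causes of these changes in the counts were not tested, that under the mean of each nucleus's CPM included. Zone ranges without the shallow cluster were an alternative chosen after seeing the data, under which the pericentral over periportal log2 ratio of Ces2a in Cox10-/- was -0.08, against 0.39. No paired analysis was possible because each group has 1 library. With 1 animal and 1 preparation per group, genotype, animal and preparation cannot be told apart, and the 139 wild-type nuclei of other lineages bound the wild-type free RNA level only loosely.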

Other observations

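The other Ces2 carboxylesterase genes, relatives of Ces2a, were all called higher in the Cox10-/- liver where they had enough UMIs: Ces2c (ratio 3.65, 1.88 to 7.45), Ces2e (3.74, 2.98 to 4.73) and Ces2g (3.41, 2.13 to 5.57). Ces2e, for example, had 58.6 CPM in hepatocyte-like nuclei of the Cox10-/- liver and 15.7 CPM in those of the wild-type liver, against 69.5 and 20.3 CPM in their other lineages. As for Ces2a, none of the 3 stood 2 times above the other lineages. Of 24 cytoplasmic ribosomal protein genes, 18 were called higher and 0 lower (8 and 0 without the shallow cluster), and none of the 18 lay above the other lineages. Their own expression in the other lineages was not told apart from free RNA, so that level is not read as free RNA here. The shares of all genes called were 7.67% higher and 3.22% lower, or 5.12% and 3.08% without that cluster.

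Cyp2b9 and Cyp2b13 are female-biased in mouse liver, so sex-linked genes were read beside them. Xist had 1 UMI in Cox10-/- and 3 in wild-type hepatocyte-like nuclei, while the Y-linked genes Ddx3y (128 and 125 CPM), Uty (327 and 320 CPM), Kdm5d (42.5 and 58.9 CPM) and Eif2s3y (77.6 and 76.9 CPM) were present in both livers. Of 13 female-biased genes 2 had enough UMIs: Cyp2b9 was called higher, and Cyp17a1, a steroid hydroxylase gene, was called lower, with 4 against 167 UMIs, or 24.5-fold (9.40 to 91.0). Of 11 measured male-biased genes 5 were called lower and 1 higher, with a median log2 ratio of -0.93 against -0.03 for all genes, and 7 lower without the shallow cluster. Among all genes 3.22% were called lower and 7.67% higher, and 3.08% lower without that cluster. Hsd3b5, a male-specific steroid enzyme gene, had 3 UMIs in Cox10-/- and 215 in wild-type. Elovl3, a fatty acid elongase gene, had 2 and 43 UMIs. Slco1a1, an organic anion transporter gene, was at 149 and 641 CPM, 4.31-fold lower (3.96 to 4.69). In the other lineages Slco1a1 was at 40.7 CPM in Cox10-/- and 324 CPM in wild-type. There Hsd3b5 was at 1.77 and 12.7 CPM, Elovl3 at 0.379 and 10.1 CPM and Cyp17a1 at 0.379 and 7.60 CPM. Of the 5 male-biased genes called lower, 2 stood at least 2 times above the wild-type other lineages. The gene called higher was Mup20, a urinary protein gene, at 3129 and 743 CPM, with 3644 and 1061 CPM in the other lineages.

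Of 13 measured pericentral genes 9 were called higher and 0 lower, among them Lgr5, a Wnt pathway receptor gene (40.1 against 9.45 CPM, ratio 4.24, 3.18 to 5.72), and Cyp1a2, a P450 gene (141 against 38.1 CPM, ratio 3.70, 3.20 to 4.29). Of the 9, Slc1a2 and Lgr5 were at least 2 times above the Cox10-/- other lineages, Lgr5 at 10.2 times, and the others, such as Cyp1a2 at 0.943 times, were not. Without the shallow cluster 7 of 12 were called higher, and over all genes 7.67% were called higher, or 5.12% without that cluster. Of 14 periportal genes 2 were called higher and 0 lower: Etnppl, a phospholipid enzyme gene (484 against 123 CPM), and Pigr, the transporter of polymeric antibodies (438 against 200.1 CPM). Pigr was at 613 and 309 CPM in the other lineages and at a ratio of 1.64 without the shallow cluster, where Etnppl was the 1 periportal gene called.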
